A study of Mus musculus with 20 samples.

Results

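Local translation in axons depends on proteins that bind mRNAs, carry them in granules along microtubules and keep them silent until they are needed. The 10 genes described here encode such proteins: Ybx1, Igf2bp1, Fmr1, Elavl4, Khsrp, Stau1, Stau2, Pura, Hnrnpr and Smn1. They were taken by name from the deposited count table, where each symbol matched 1 of 55487 genes, and all 10 passed the filter on low counts in every comparison. What is reported is the abundance of the mRNAs that encode these proteins, not of the proteins. The libraries came from subcerebral projection neurons, the cortical neurons whose axons reach the brainstem and spinal cord, of mice at postnatal day 1. Growth cones, the tips of the growing axons, were from brainstem and spinal cord, and somata were from cortex. Each of the 4 groups had 5 libraries: WT growth cones, growth cones with the genotype label Bcl11b KO, WT somata, and somata with the Bcl11b KO label. No agent was given per the labels, all mice were of the same age, and how growth cones and somata were isolated, the mouse strain and the extent of the deleted sequence are not given in the sources used here. Libraries are named by the experiment number in their titles, and nothing in the labels says what libraries of equal number share, so p-values measure the spread between these libraries.

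As background, the best-known route runs through short sequence elements, often in the 3′ untranslated region (3′UTR) of the cargo. Igf2bp1 (ZBP1, IMP1) binds the zipcode of beta-actin mRNA and holds it untranslated during transport. Elavl4 (HuD) binds AU-rich elements and stabilises mRNAs such as Gap43, and Khsrp binds AU-rich elements and promotes decay. Fmr1 encodes FMRP, a repressor of translation whose loss causes fragile X syndrome. Stau1 and Stau2 bind double-stranded RNA in transport granules, Pura binds RNA and DNA in kinesin-associated granules, and Hnrnpr carries beta-actin mRNA in motor axons together with SMN. Smn1 encodes SMN, which assembles ribonucleoprotein particles and whose loss causes spinal muscular atrophy. Ybx1 encodes a cold-shock domain protein that packages mRNA and is abundant in the cytoplasm of developing neurons.

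Elements of the kind that Igf2bp1 and the Elavl4 and Khsrp proteins are known to read are shown because the mRNAs that hold them return below. They were read from GENCODE M21 transcripts (GRCm38), 5′ to 3′ on the transcribed strand, and capitals mark the letters searched for. The first search asked for a bipartite element, CGGAC followed after 10 to 22 bases by ACA, a spacing set wide enough to include the beta-actin element, on the sense strand only. It is held by the 3′UTR of 3.14% of 21045 genes, by 2 of 17 mRNAs listed as known in axons or dendrites, and by 0 of the 10 genes described here. Actb, 1 of those 2, was bound to match by the choice of spacing, so the 2 of 17 cannot be weighed against the 3.14%. The Actb element lies at chr5:142903770-142903796 on the minus strand and begins at base 2 of the 3′UTR. The Nrn1 element lies at chr13:36726336-36726364 on the minus strand.
Actb: CGGACtgttactgagctgcgttttACA
Nrn1: CGGACctcaccttttagtccgtcttcACA
The second search asked for ATTTA, the core of AU-rich elements, in the sense strand of the 3′UTR, counting copies that share bases. It was found in 62.7% of genes, in 15 of the 17 listed mRNAs, and in 7 of the 10 genes described here (not in Ybx1, Stau1 or Smn1). Examples are a pair of copies that share 1 base in Elavl4 itself (chr4:110204993-110205001, minus), a close pair in Igf2bp1 (chr11:95962065-95962077, minus) and a pair in Map1b (chr13:99423669-99423685, minus).
Elavl4: ATTTATTTA
Igf2bp1: ATTTAttaATTTA
Map1b: ATTTAtttcaaaATTTA
A match to these letters is a description of the sequence and not a binding site.

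Total counts ran from 21657575 to 29323028 in growth cones and from 18962308 to 51205154 in somata. Bcl11b itself, the gene named in the KO label, was 101.1 ± 19.4 (SD, n = 5) in WT growth cones and 102.2 ± 35.0 in growth cones labelled KO, in CPM, the usual library-size-scaled count. In somata it was 700.9 ± 129.8 CPM in WT and 1152 ± 56.8 in those labelled KO, so the Bcl11b count was not lower with the label. Because the extent of the deleted sequence is not given, a count over the whole gene cannot decide whether Bcl11b function was lost. The term "labelled KO" is used throughout with no direction of Bcl11b loss implied. Summed markers of most other cell types, but not of microglia, were higher in every WT growth cone library than in every WT soma library. These sums are CPM by library totals alone. The 14 hindbrain and spinal cord markers summed to 96.3 to 195 CPM in WT growth cones, with all 14 detected, and to 0.0527 to 2.91 CPM in WT somata, where Hoxc6, Hoxc10, Hoxd8 and Lbx1 had no counts. The 8 astrocyte and radial glia markers summed to 1730 to 2370 CPM in WT growth cones and 33.1 to 253 CPM in WT somata. The 8 oligodendrocyte lineage markers summed to 523 to 2240 and 57.7 to 101 CPM, and the 9 progenitor markers to 185 to 323 and 10.4 to 27.6 CPM. The 7 choroid plexus and meninges markers summed to 396 to 552 and 0.352 to 9.15 CPM, and the 8 vessel and blood markers to 282 to 576 and 4.08 to 22.4 CPM. Single markers weighed heavily in these 2 sums. Scaled as the levels below, Ttr ran from 239 to 390 CPM and the haemoglobin gene Hba-a1 from 114 to 313 CPM in WT growth cones. The vessel markers Pecam1 and Flt1 overlapped with WT somata, and 4 of 7 vessel and blood markers tested were called higher (edgeR, FDR 0.05). The 7 microglia markers overlapped, at 44.2 to 78.2 and 3.29 to 85.2 CPM. The 8 markers of subcerebral projection neurons summed to 719 to 927 CPM in WT growth cones and 1770 to 1880 CPM in WT somata. Of these 8, 1 was higher in WT growth cones and 5 lower (edgeR, FDR 0.05). Comparing genotypes, the same test called 0 of the 8 in growth cones. For somata it called 2 as raised and 2 as reduced under the KO label, beside 0.731% of all genes. Scaled as the levels below, Pcp4 ran from 157 to 370 CPM in WT growth cones and from 29.5 to 61.2 CPM in WT somata. With the KO label, Pcp4 ran from 10.4 to 14.9 CPM in somata. Etv1 ran from 227 to 307 CPM there and from 51.5 to 138 CPM in WT somata. The 7 pan-neuronal markers summed to 4130 to 5310 CPM in WT growth cones and 7640 to 9070 CPM in WT somata. The 5 nuclear-retained RNAs overlapped, at 456 to 763 and 292 to 804 CPM. With the KO label the hindbrain and spinal cord sums were 83.8 to 225 CPM in growth cones and 0.0284 to 0.128 CPM in somata, and the astrocyte and radial glia sums 1850 to 2430 and 121 to 320 CPM. The part of these other cells in the results below was not tested. Compartment cannot be told apart from tissue, RNA input or experiment, since growth cones came from experiments 7 to 11 and somata from experiments 12 to 26. Bulk libraries also cannot tell fewer cells or growth cones of a kind from less of an mRNA in each.

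Ybx1 stood above the others in every group, and Igf2bp1 was the least abundant per kilobase in every group. All levels are CPM after trimmed mean (TMM) scaling over the 20 libraries, and only levels per kilobase of exon are compared between genes. In WT somata the order per kilobase was Ybx1 (394 ± 46.1 CPM per kb, SD, n = 5), Stau2 (50.9 ± 8.94), Elavl4 (38.8 ± 7.94), Stau1 (35.1 ± 4.76), Hnrnpr (12.6 ± 1.73), Fmr1 (10.1 ± 1.53), Smn1 (9.92 ± 1.14), Khsrp (8.12 ± 2.05), Pura (1.86 ± 0.447) and Igf2bp1 (0.938 ± 0.556). Elavl4 and Stau1, and Fmr1 and Smn1, differed there by less than the SD of either gene. In WT growth cones the order was Ybx1 (4456 ± 512 CPM per kb), Stau2 (29.9 ± 5.63), Elavl4 (27.7 ± 4.83), Stau1 (19.0 ± 4.77), Smn1 (13.9 ± 6.18), Pura (7.94 ± 2.45), Hnrnpr (5.75 ± 2.06), Khsrp (5.56 ± 0.967), Fmr1 (5.03 ± 1.33) and Igf2bp1 (0.139 ± 0.154). Stau2 and Elavl4, and the run of Hnrnpr, Khsrp and Fmr1, differed by less than the SD of either neighbour. Hnrnpr has 22199 bases of annotated exon, and its value per kilobase is taken over all of them. Among the 11591 genes that averaged 5 CPM or more in WT growth cones, Ybx1 ranked 5th per kilobase, and among 10314 such genes in WT somata it ranked 65th.

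**Figure D1:**
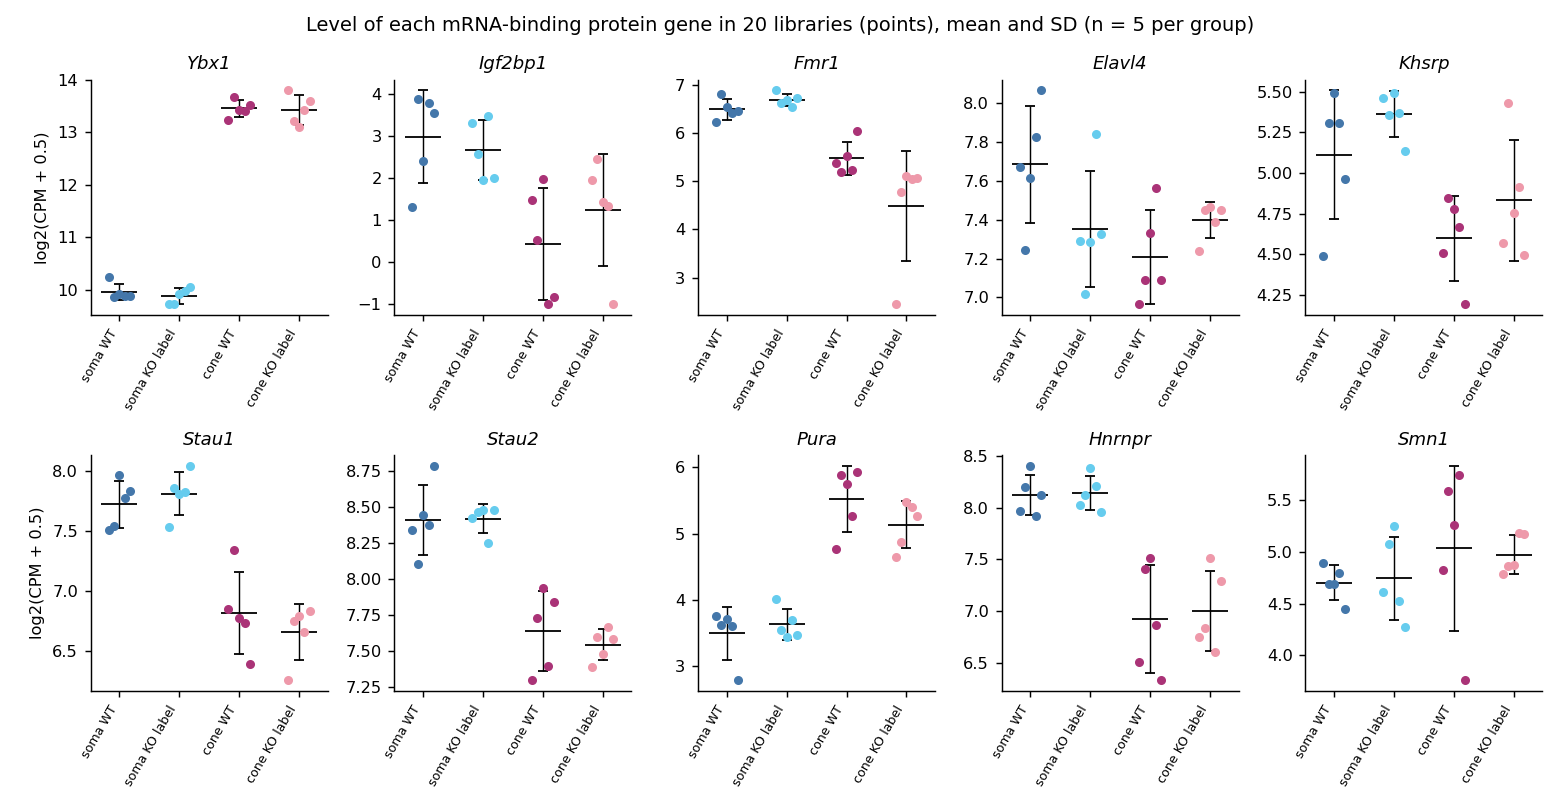
Level of each gene as log2(CPM + 0.5) on the vertical axis in the 5 libraries of each group (points, colours by group), with the mean (bar) and SD. Ybx1 and Pura are higher in every growth cone library than in every soma library, Fmr1, Stau1, Stau2 and Hnrnpr are lower in every one, and the 2 genotypes overlap in each compartment except for Fmr1 in growth cones (up to 33.8 CPM with the KO label and from 36.2 CPM in WT).

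Of the 10 mRNAs, Ybx1 had the largest called difference between compartments. Ybx1 (ENSMUSG00000028639.14) lies on the minus strand at chr4:119277981-119294604 (GRCm38). Its level in WT growth cones was 9592, 13129.5, 10999.6, 10907 and 11759 CPM in experiments 7 to 11, against 1204, 928, 964, 941 and 943 CPM in WT somata of experiments 12, 14, 22, 25 and 26. In growth cones labelled KO it was 14229, 9515, 8817, 10919.9 and 12391 CPM, and in somata labelled KO 848, 841, 965, 1007 and 1053 CPM. The lowest growth cone library was above the highest soma library in both genotypes. The log2 fold change of growth cones over somata was 3.54 ± 0.13 (SE) in WT, an 11.7-fold difference with an edgeR adjusted p of 8.895e-09. Between growth cones and somata labelled KO it was 3.65 ± 0.16, or 12.5-fold, with an edgeR adjusted p of 1.199e-07. As a share of all counts, Ybx1 held 1.2% ± 0.115 (SD, n = 5) in WT growth cones and 0.0933% ± 0.0127 in WT somata, and 1.18% ± 0.179 and 0.0885% ± 0.0077 in the libraries labelled KO. The 5 genes whose profile over the 20 libraries was most like that of Ybx1 were Ybx1-ps2, Hacd1, Ap3s1, Aes and Pkig, with root mean square differences of 0.197 to 0.248 in centred log2 CPM among 10698 genes. Ybx1-ps2 is an annotated pseudogene copy, at 39.4 CPM in WT growth cones and 3.29 CPM in WT somata, and reads of the copy and of Ybx1 may not be separable.

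Pura, which encodes the granule protein Pur-alpha, was the other gene of the 10 that rose in growth cones. WT growth cones had 26.6, 58.7, 52.9, 37.9 and 60.5 CPM, and WT somata 13.0, 11.8, 12.6, 11.7 and 6.43 CPM. Growth cones labelled KO had 24.7, 28.7, 43.9, 41.8 and 37.8 CPM, and somata labelled KO 15.6, 11.2, 10.4, 12.5 and 10.6 CPM. No soma library reached the lowest growth cone library in either genotype. The log2 fold change was 2.13 ± 0.33 (SE) in WT, or 4.38-fold, with an edgeR adjusted p of 0.0002968. In the libraries labelled KO it was 1.63 ± 0.30, or 3.09-fold, with an edgeR adjusted p of 0.001268.

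The 2 Staufen genes fell in growth cones by similar amounts. Stau1 (ENSMUSG00000039536.16) lies on the minus strand at chr2:166947549-166996299 and Stau2 (ENSMUSG00000025920.19) lies on the minus strand at chr1:16228674-16520112. Stau1, the widely expressed Staufen that also directs decay of bound mRNAs, was at 115, 162, 109, 106 and 83.3 CPM in WT growth cones and at 182, 186, 250.1, 218 and 228 CPM in WT somata. Growth cones labelled KO had 76.0, 108, 111, 101 and 114 CPM of Stau1, and somata labelled KO 185, 232, 224, 227 and 263 CPM. The groups did not overlap, and the log2 fold change was -0.84 ± 0.18 (SE, edgeR adjusted p = 0.00255) in WT and -1.07 ± 0.15 (edgeR adjusted p = 0.0001813) in the libraries labelled KO. Stau2, the Staufen enriched in brain, was at 157, 211, 244, 168 and 229 CPM in WT growth cones and at 323, 274, 347, 332 and 439 CPM in WT somata. Growth cones labelled KO had 167, 193, 178, 203 and 191 CPM of Stau2, and somata labelled KO 342, 353, 356, 303 and 356 CPM. Here too every growth cone library was below every soma library, with a log2 fold change of -0.72 ± 0.17 (SE, edgeR adjusted p = 0.00389) in WT and -0.80 ± 0.11 (edgeR adjusted p = 0.0001252) in the libraries labelled KO.

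Hnrnpr and Fmr1 also fell. Hnrnpr (ENSMUSG00000066037.14) lies on the plus strand at chr4:136310942-136359447 and Fmr1 (ENSMUSG00000000838.17) lies on the plus strand at chrX:68678541-68717963. Hnrnpr was at 90.9, 169, 182, 116 and 80.3 CPM in WT growth cones and at 249, 293, 337, 242 and 278 CPM in WT somata. With the KO label it was at 107, 114, 183, 97.1 and 157 CPM in growth cones and at 261, 278, 334, 295 and 248 CPM in somata. The highest growth cone library lay below the lowest soma library in both genotypes. Its log2 fold change was -1.09 ± 0.23 (SE, edgeR adjusted p = 0.00213) in WT and -1.02 ± 0.19 (edgeR adjusted p = 0.00122) in the libraries labelled KO. Fmr1 was at 41.2, 36.2, 45.9, 37.0 and 65.3 CPM in WT growth cones and at 74.6, 112, 92.5, 84.6 and 88.0 CPM in WT somata. Growth cones labelled KO had 4.94, 27.1, 33.8, 32.4 and 33.0 CPM of Fmr1, and somata labelled KO 118, 98.0, 102, 92.0 and 105 CPM. The library of experiment 7 labelled KO stood far below the others, and the groups did not overlap with or without it. The log2 fold change of Fmr1 was -0.95 ± 0.21 (SE, edgeR adjusted p = 0.00351) in WT and -1.90 ± 0.41 (edgeR adjusted p = 0.003325) in the libraries labelled KO, and -1.68 in the latter without the growth cone library of experiment 7.

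Igf2bp1, the zipcode-binding protein gene, was scarce in all groups and varied widely between growth cone libraries. Igf2bp1 (ENSMUSG00000013415.9) lies on the minus strand at chr11:95957163-96005940. WT growth cones had 2.30, 0.948, 3.43, 0 and 0.064 CPM, and WT somata 1.98, 14.2, 4.85, 13.2 and 11.2 CPM. The library of experiment 10 held 0 counts, which allows up to 0.114 CPM (3 counts of its total, counting error only), and that of experiment 11 held 2 counts. In growth cones labelled KO it was at 3.40, 5.04, 2.22, 2.05 and 0 CPM, where 0 counts in experiment 11 allow up to 0.139 CPM, and in somata labelled KO at 9.40, 5.46, 3.39, 10.7 and 3.51 CPM. Growth cones were mostly lower, but the groups overlapped in both genotypes. The log2 fold change was -2.70 ± 1.24 (SE, edgeR adjusted p = 0.0981) in WT and -1.27 ± 1.04 (edgeR adjusted p = 0.368) in the libraries labelled KO, so neither passed the threshold. The WT call changed with the tool: DESeq2 gave -2.62 (adjusted p = 0.0407) and limma-voom -4.13 (adjusted p = 0.0232). The 5 profiles most like that of Igf2bp1 over the 20 libraries belonged to Vcan, Igf2bp3, Cdh12, Ccnt1 and Rrm1, at root mean square differences of 0.702 to 0.812 in centred log2 CPM, wider than those around Ybx1.

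Elavl4, Khsrp and Smn1 did not pass the test between compartments. Elavl4 was at 124, 135, 161, 189 and 136 CPM in WT growth cones and at 203, 151, 196, 227 and 268 CPM in WT somata. Libraries labelled KO had it at 151, 174, 177, 167 and 174 CPM in growth cones and at 156, 129, 155, 229 and 160.1 CPM in somata, and the groups overlapped in both genotypes. Its log2 fold change was -0.44 ± 0.17 (SE, 95% interval -0.82 to -0.07, edgeR adjusted p = 0.0573) in WT and 0.10 ± 0.16 (-0.24 to 0.44, edgeR adjusted p = 0.646) in the libraries labelled KO. The WT value lay near the threshold: it passed with all 20 libraries in 1 fit (adjusted p = 0.0233), without the growth cone library of experiment 10 (0.0315) and without the soma library of experiment 14 (0.0371). Khsrp ranged from 17.8 to 28.3 CPM in WT growth cones and from 21.9 to 44.5 CPM in WT somata. In the libraries labelled KO it ranged from 22.1 to 42.6 CPM in growth cones and from 34.7 to 44.5 CPM in somata. For Khsrp the log2 fold change was -0.50 ± 0.28 (edgeR adjusted p = 0.172) in WT and -0.42 ± 0.26 (edgeR adjusted p = 0.217) in the libraries labelled KO. Smn1 ranged from 13.1 to 53.0 CPM in WT growth cones and from 21.4 to 29.3 CPM in WT somata. Libraries labelled KO ranged from 27.1 to 35.7 CPM in growth cones and from 18.9 to 37.5 CPM in somata, and both pairs of groups overlapped for both genes. Smn1 had a log2 fold change of 0.52 ± 0.36 (edgeR adjusted p = 0.261) in WT and 0.27 ± 0.28 (edgeR adjusted p = 0.477) in the libraries labelled KO. Without the WT growth cone library of experiment 11, the one at 13.1 CPM, Smn1 in WT reached 0.73 (adjusted p = 0.0489).

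In all, 2 of the 10 genes were higher in WT growth cones than in WT somata and 4 were lower. Differences between compartments were common: 42.8% of the 15128 genes tested passed the threshold in WT, 23.1% higher and 19.7% lower. In the libraries labelled KO the counts were again 2 higher and 4 lower, beside 38.6% of 15410 genes tested (21.6% higher, 17% lower). The same 2 genes were higher and the same 4 were lower in both genotypes, and these 2 comparisons share no library. How many of all genes were called alike in both genotypes was not counted, so the agreement of these 6 genes cannot be weighed. Groups did not overlap for those 6 genes in either genotype, beside 37.6% of all genes tested in WT (20.3% higher, 17.3% lower) and 36.2% in the libraries labelled KO (18.6% higher, 17.5% lower). The median log2 fold change of the 10 genes was -0.61 in both genotypes, beside 0.07 over all genes in WT and 0.11 in the libraries labelled KO. Other scalings moved the median of all genes to as much as 0.28 in WT and 0.31 in the libraries labelled KO. Relative to that median, Ybx1 was at 3.47 and Fmr1 between -1.03 and -1.02 in WT under each of the 4 scalings of the edgeR fit.

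**Figure D2:**
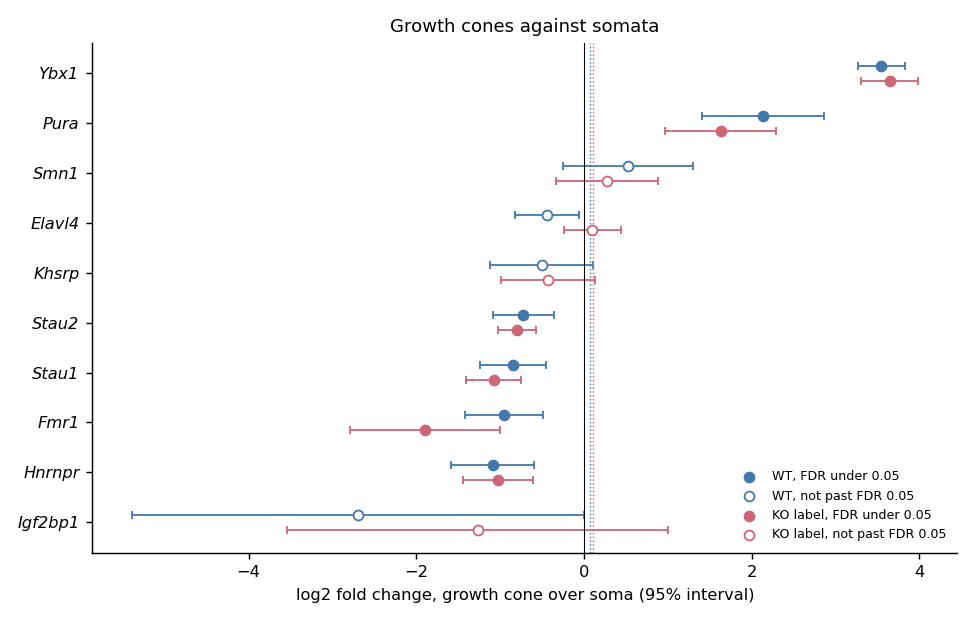
Log2 fold change of growth cones over somata on the horizontal axis for each gene, with its 95% interval, in WT (blue) and in libraries labelled KO (red). Filled points passed FDR 0.05, and dotted lines mark the median of all genes. Ybx1 (3.54 and 3.65) and Pura (2.13 and 1.63) lie to the right, and the intervals of Igf2bp1 are the widest of the 10.

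None of the 10 mRNAs passed the test between libraries labelled KO and WT libraries of the same compartment. In growth cones 0 of 10 passed the edgeR test, beside 0% of 15419 genes tested, and 0 of 10 had an unadjusted p under 0.05, beside 329 of all genes. In somata 0 of 10 passed, beside 0.731% of 14911 genes (109 called, 0.416% higher and 0.315% lower), and again 0 of 10 had an unadjusted p under 0.05, beside 1278 of all genes. DESeq2 and limma-voom also called 0 of the 10 in either compartment. Over all genes in growth cones, DESeq2 called 117 and limma-voom 0. With CPM scaled within each comparison, libraries of the 2 genotypes overlapped for all 10 genes in both compartments, beside 0.48% of genes that did not overlap in growth cones (0.233% higher, 0.246% lower) and 3.13% in somata (1.84% higher, 1.29% lower). For Fmr1 in growth cones this depends on the scaling: in the levels given above, scaled over all 20 libraries, the highest library labelled KO (33.8 CPM) lies below the lowest WT library (36.2 CPM).

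The intervals show which sizes of genotype difference these libraries could have missed. For Ybx1 the log2 fold change of labelled KO over WT was -0.0004 (95% interval -0.31 to 0.31) in growth cones and -0.08 (-0.30 to 0.13) in somata. Stau2 gave -0.09 (-0.45 to 0.26) and -0.01 (-0.26 to 0.24), and Stau1 -0.15 (-0.60 to 0.29) and 0.08 (-0.17 to 0.34). For these 3 genes every bound lay within 0.60 of 0 on the log2 scale. Pura gave -0.40 (-1.07 to 0.28) in growth cones and 0.11 (-0.46 to 0.69) in somata, Hnrnpr 0.06 (-0.51 to 0.63) and 0.01 (-0.23 to 0.26), and Khsrp 0.29 (-0.45 to 1.02) and 0.22 (-0.20 to 0.63). Smn1 gave -0.19 (-1.01 to 0.64) and 0.08 (-0.38 to 0.54). Igf2bp1 gave 0.94 (-2.21 to 4.09) and -0.49 (-1.69 to 0.71), and its interval in growth cones holds several-fold differences in either direction.

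Values of opposite sign in the compartments were given by Igf2bp1, Stau1, Pura, Smn1, Fmr1 and Elavl4. None of these values was called, and those of Pura and Smn1 changed sign under some alternatives. How many of all genes had opposite signs was not counted. Fmr1 was -0.76 (-1.76 to 0.25) in growth cones and 0.19 (-0.08 to 0.45) in somata, and without the growth cone library of experiment 7 labelled KO the former was -0.49. Elavl4 was 0.19 (-0.17 to 0.55) in growth cones and -0.34 (-0.71 to 0.04) in somata. The difference itself was tested by the interaction of genotype and compartment over all 20 libraries, where 0 of 10 passed, beside 0.0397% of 17645 genes (7 called, 0.0113% higher and 0.0283% lower). Fmr1 had an interaction of -0.97 (-1.94 to -0.0009, edgeR adjusted p = 0.714) and Elavl4 of 0.51 (0.02 to 1.00, edgeR adjusted p = 0.686). They were the 2 of the 10 genes with an unadjusted p under 0.05 (0.0498 and 0.0411, edgeR), beside 1231 of all genes.

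**Figure D3:**
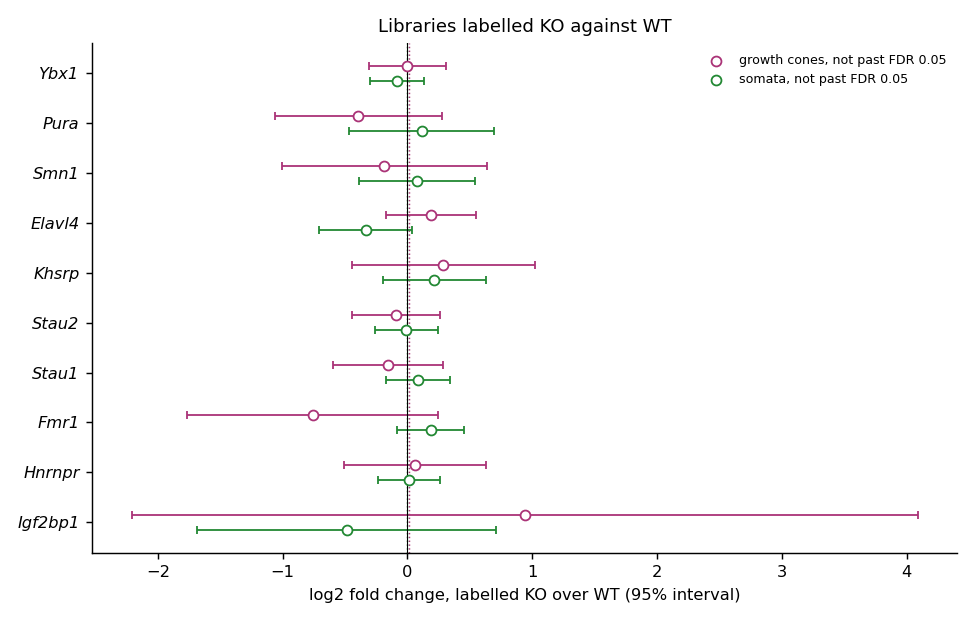
Log2 fold change of libraries labelled KO over WT on the horizontal axis for each gene, with its 95% interval, in growth cones (purple) and somata (green). Every point is open because 0 of 10 passed FDR 0.05 in either compartment, and every interval includes 0.

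Paralogs of these proteins did not all follow their relatives. Beside Ybx1, the cold-shock gene Ybx3 also rose in growth cones, with a log2 fold change of 2.20 ± 0.18 (SE, edgeR adjusted p = 2.199e-06) in WT and 2.12 ± 0.19 (edgeR adjusted p = 6.888e-06) in the libraries labelled KO. Beside Pura, Purg rose by 2.96 and 3.09 on the log2 scale (edgeR adjusted p = 1.851e-05 and 0.0004441), and Purb by 0.91 in WT (edgeR adjusted p = 0.0168), with 0.63 in the libraries labelled KO (edgeR adjusted p = 0.098). Among the Elav genes, Elavl3 rose by 0.88 and 0.70 (edgeR adjusted p = 0.00808 and 0.0113). Elavl1, the widely expressed HuR gene, was at -1.42 and -1.93 (edgeR adjusted p = 0.0001456 and 0.0002082), and Elavl2 at -1.05 and -0.72 (edgeR adjusted p = 0.00141 and 0.0199). Fubp1, related to Khsrp, was at -1.05 in both genotypes (edgeR adjusted p = 0.00117 and 0.00206). Syncrip, related to Hnrnpr, was at -0.71 in WT (edgeR adjusted p = 0.0141) and -0.25 with the KO label (edgeR adjusted p = 0.267). Of 14 paralogs listed, 13 could be tested in WT, where 4 were higher and 4 lower, beside 23.1% and 19.7% of all genes. All 14 could be tested in the libraries labelled KO, where 3 were higher and 4 lower, beside 21.6% and 17%. Fxr1 and Fxr2, the relatives of Fmr1, were not called in either genotype, at 0.17 and 0.41 for Fxr1 and -0.40 and -1.21 for Fxr2. Fxr1 shares 2.7% of its exon bases with the opposite-strand gene Dnajc19 and Elavl1 shares 2.0% with Ccl25, and whether strand was used in counting is not given in the sources used here.

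Igf2bp2, a relative of Igf2bp1, was the 1 paralog of 14 whose growth cone libraries did not overlap between genotypes, beside 0.48% of all genes tested. It was at 9.57, 4.67, 15.3, 7.24 and 9.24 CPM in WT growth cones and at 0.664, 0.725, 0.485, 3.43 and 0 CPM in growth cones labelled KO, all below the lowest WT library. In WT somata it was at 9.64 to 13.8 CPM and in somata labelled KO at 11.05 to 18.7 CPM. The log2 fold change of labelled KO over WT was -3.05 ± 1.18 (SE, edgeR adjusted p = 0.9995, unadjusted 0.024) in growth cones and 0.24 ± 0.24 (edgeR adjusted p = 0.945) in somata. The interaction was -3.35 (95% interval -5.56 to -1.15, edgeR adjusted p = 0.419, unadjusted 0.00484). None of these passed the threshold. Igf2bp2 was not called between WT growth cones and somata (-0.27, edgeR adjusted p = 0.674) and was lower in growth cones than in somata with the KO label (-3.60 ± 1.05, edgeR adjusted p = 0.0179).

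The ratio of 2 genes within a library does not depend on how libraries are scaled, so 8 ratios to a paralog were compared between the groups. With 5 libraries against 5 the smallest two-sided p of the exact permutation test is 0.00794, and with 32 tests none of the ratios passed after adjustment. Even groups that were fully apart reached an adjusted exact p of only 0.0635 here. Not passing therefore does not show that a ratio was alike in the 2 groups. The log2 ratio of Ybx1 to Ybx3 was 4.49 ± 0.20 (SD, n = 5) in WT growth cones and 3.16 ± 0.41 in WT somata, and 4.58 ± 0.20 and 3.06 ± 0.26 in the libraries labelled KO. The libraries did not overlap, and the differences of 1.32 and 1.52 both had the smallest exact p, 0.00794, and an adjusted exact p of 0.0635. In WT, 2 more ratios were at that limit. Fmr1 to Fxr1 was 0.86 ± 0.32 (SD, n = 5) in growth cones and 2.004 ± 0.41 in somata. Elavl4 to Elavl3 was -0.08 ± 0.29 in growth cones and 1.28 ± 0.63 in somata. Their adjusted exact p was 0.0635 as well. Stau2 to Stau1 was 0.82 ± 0.47 in WT growth cones and 0.68 ± 0.20 in WT somata, a difference of 0.14 (exact permutation p = 0.548). Pura to Purb differed by 1.21 in WT and 1.03 in the libraries labelled KO (adjusted exact p = 0.0847 and 0.127). Igf2bp1 to Igf2bp3 differed by -2.25 and -0.34 (adjusted exact p = 0.162 and 0.61), and Igf2bp3 shares 18.7% of its exon bases with the opposite-strand gene Malsu1. Between genotypes the lowest p belonged to Elavl4 to Elavl3 in growth cones, 0.36 ± 0.23 with the KO label and -0.08 ± 0.29 in WT (exact permutation p = 0.0159, adjusted 0.0847).

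**Figure D4:**
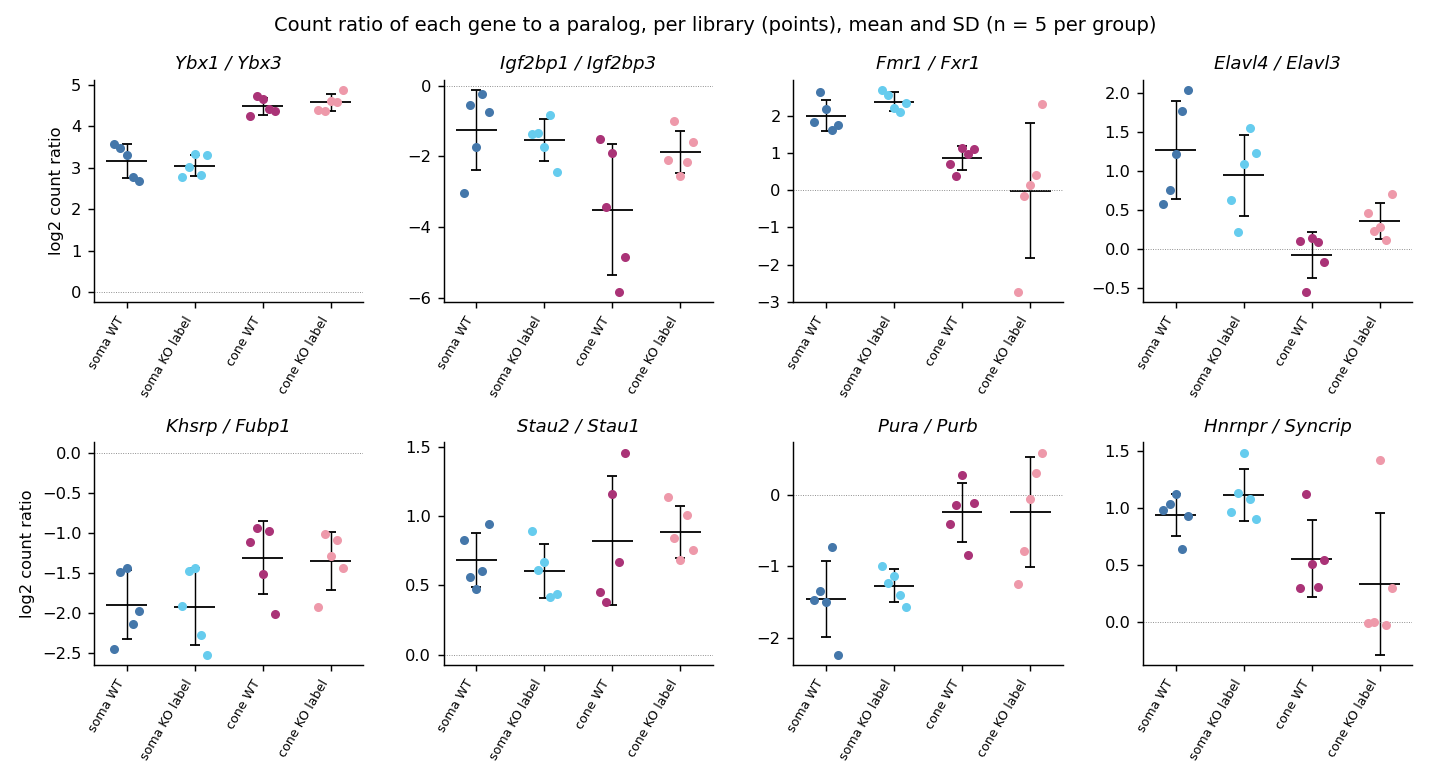
Log2 ratio of the counts of each gene to those of a paralog on the vertical axis in each library (points), with group mean and SD, and a dotted line at equal counts. Ybx1 exceeds Ybx3 by more in growth cones (4.49 and 4.58) than in somata (3.16 and 3.06), and the ratio of Elavl4 to Elavl3 is near 0 in WT growth cones.

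Genes of the same pathways were described from 6 lists with 83 genes in all, the 14 paralogs above included. In WT, 19 were higher in growth cones and 33 lower of 82 tested, or 63.4% called beside 42.8% of all genes. With the KO label 15 were higher and 29 lower of 83, or 53% called beside 38.6%. Called in both genotypes were 14 higher and 27 lower, which is 78.8% of the WT calls and 93.2% of the calls with the KO label, and 0 were called in opposite directions. The same shares over all genes were not counted, so this agreement cannot be read as a trait of the listed genes. The median log2 fold change of the listed genes was -0.26 and -0.31. The counts of each list below stand beside 23.1% higher and 19.7% lower over all genes in WT, and 21.6% and 17% with the KO label. No test of a list as a set was run, and the lists were chosen with earlier results of these data known. All genes were also not matched to the lists in abundance, so the shares called cannot be weighed against those of all genes. Values below are log2 fold changes, first in WT and then with the KO label.

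FMRP works with partners that tie it to actin and to granules. Of 5 listed, 4 fell in WT and 3 with the KO label, beside 19.7% and 17% of all genes. Caprin1, a granule protein, was at -1.42 and -1.15 (edgeR adjusted p = 2.157e-05 and 0.0002836), Cyfip2, a subunit of the WAVE complex, at -1.57 and -1.47, and Cyfip1 at -1.38 and -1.82. Of 8 SMN complex partners, 2 rose and 2 fell in WT, and 2 rose and 1 fell with the KO label. Gemin7 was 3.52 and 3.15 higher (edgeR adjusted p = 2.155e-07 and 2.949e-07), and averaged 735 ± 185 CPM (SD, n = 5) in growth cones and 66.01 ± 9.55 CPM in somata of WT mice. Gemin4 rose by 2.04 and 2.59 but was scarce, at 1.70 to 6.28 CPM in WT growth cones and 0.345 to 1.16 CPM in WT somata. With the KO label its growth cone and soma libraries overlapped. The helicase gene Ddx20 was at -1.57 and -2.97, and Strap at -0.85 in WT and -0.30 with the KO label, where Strap did not pass (edgeR adjusted p = 0.264). Smn1 itself did not pass, and the complex members that passed moved in both directions.

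Among 18 other hnRNP genes, 2 rose and 10 fell in WT, and 2 rose and 9 fell with the KO label. Hnrnpk was at -1.79 and -1.68, Hnrnph2 at -1.72 and -1.76 and Hnrnpll at -1.64 and -1.56, as Hnrnpr was at -1.09 and -1.02. Hnrnpa0 rose by 2.74 and 2.73 (edgeR adjusted p = 1.038e-05 and 2.106e-06) and Hnrnpul2 by 2.63 and 2.05. In the list of 22 granule and translational-control genes, 4 rose and 8 fell in WT, and 4 rose and 7 fell with the KO label. Pabpc1, the poly(A)-binding protein gene, rose by 1.42 and 1.52, Sfpq by 1.16 and 1.36, and Pum2 by 1.25 and 1.30. The stress-granule gene G3bp2 was at -1.46 and -1.75, Nono at -1.43 and -1.30, and the decay factor gene Upf1 at -2.23 and -2.03.

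Of 16 neuronal splicing and stability genes, 7 rose and 5 fell in WT, and 4 rose and 5 fell with the KO label. Rbfox1 was at -2.30 and -1.19, Celf1 at -1.57 and -1.83, and Ptbp2 at -1.24 and -1.10. Celf5 rose by 1.73 and 1.07, and Msi1 and Msi2 rose by 3.65 and 3.05 in WT. The Musashi genes Msi1 and Msi2 are expressed by progenitors and glia, and the progenitor and glial marker sums given above were higher in growth cones too; their part in these 2 values was not tested. Between genotypes 0 of the 83 genes passed in either compartment, beside 0% of all genes in growth cones and 0.731% in somata. An unadjusted edgeR p under 0.05 was found for 3 in growth cones, beside 329 of all 15419 genes tested. In somata it was found for 4, beside 1278 of 14911. Libraries did not overlap for Igf2bp2 and Ago2 in growth cones and for Nufip1 and Rbfox1 in somata, 2 of 83 in each. Over all genes tested, 0.48% did not overlap in growth cones and 3.13% in somata. Rbfox1, named after its values were seen, was at 228 ± 21.4 CPM (SD, n = 5) in somata labelled KO and 334 ± 48.7 in WT somata (log2 fold change -0.56, edgeR adjusted p = 0.0516).

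**Figure D5:**
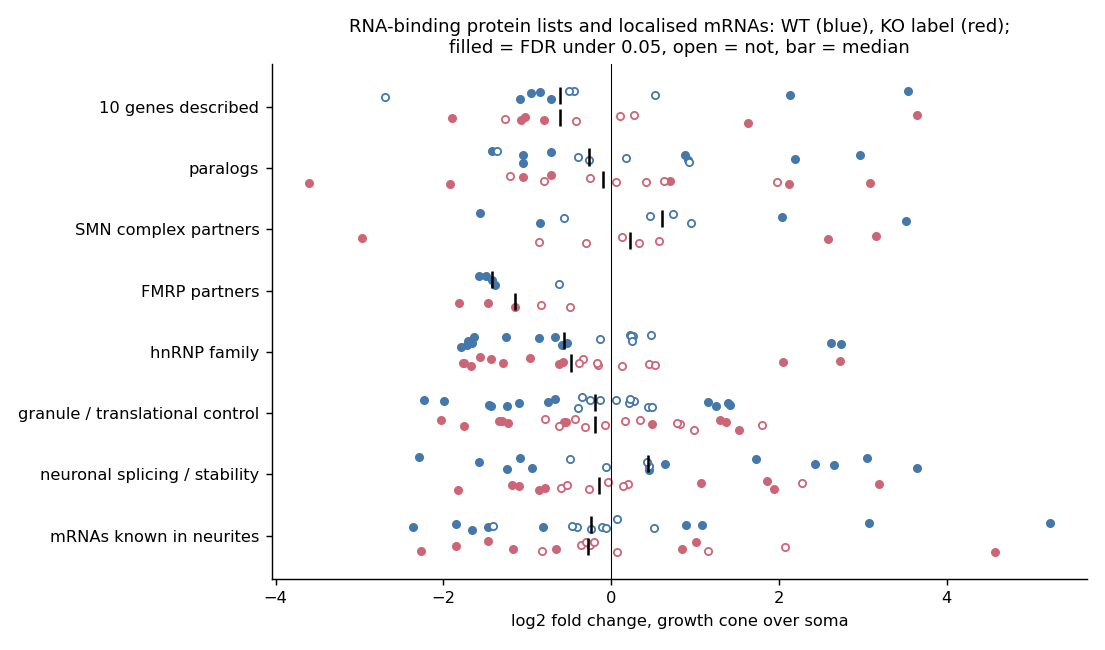
Log2 fold change of growth cones over somata on the horizontal axis for the 10 genes, 6 lists of other RNA-binding protein genes and the mRNAs known in neurites, in WT (blue) and in libraries labelled KO (red). Filled points passed FDR 0.05 and bars are list medians, which for the FMRP partners are -1.42 and -1.15.

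The mRNAs that such proteins carry moved in both directions as well. Of 17 mRNAs listed as known in axons or dendrites, 4 were higher and 5 lower in WT growth cones, or 52.9% called beside 42.8% of all genes. With the KO label 3 were higher and 5 lower of 16 tested, or 50% called beside 38.6%. As with the lists above, these shares cannot be weighed against those of all genes. Nrn1 (neuritin), one of the 2 with the bipartite element shown above, was at 41.3, 33.2, 34.1, 23.8 and 39.1 CPM in WT growth cones and at 0.031, 0.952, 0.618, 1.68 and 1.44 CPM in WT somata. Its libraries did not overlap, and its log2 fold change was 5.24 ± 0.76 (SE, edgeR adjusted p = 0.0001667) in WT and 4.58 with the KO label. Actb, the other, was at 1023, 1622, 1498, 1097 and 857 CPM in WT growth cones and at 4290, 3295, 4396, 4336 and 3453 CPM in WT somata, all higher than any growth cone library. The log2 fold change of Actb was -1.66 ± 0.18 (SE, edgeR adjusted p = 2.157e-05) in WT and -1.47 with the KO label, so the 2 mRNAs that share the element were called in opposite directions. Kpnb1, whose mRNA encodes the injury-signalling importin, rose by 1.08 and 1.01, and Cox4i1 rose by 0.89 in WT. Map1b was at -2.36 and -2.26, Tubb3 at -1.85 in WT and Hmgb1 at -1.47 in WT. Gap43, the classic target of the Elavl4 protein, averaged 2455 ± 335 CPM (SD, n = 5) in growth cones and 2994 ± 443 CPM in somata of WT mice and did not pass (-0.24, edgeR adjusted p = 0.159). Gap43 was named for that role, with its values known.

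The transcripts of the 10 genes differ widely in length, which the choice of genes did not use. By the GENCODE M21 transcript used for each gene, Smn1 (1222 bases) and Ybx1 (1628 bases) were the shortest, at the 14.8th and 24.8th percentile of all genes, and Igf2bp1 (8378 bases) and Hnrnpr (21452 bases) the longest, at the 96.4th and 99.9th. Copies of ATTTA per kilobase of 3′UTR were highest in Elavl4, at 3.47 (9 copies, 82.9th percentile), and 0 in Ybx1, Stau1 and Smn1. Of the 3 genes without a copy, Ybx1 rose in growth cones, Stau1 fell and Smn1 did not pass. Pura, which rose, has a 3′UTR of 4408 bases, against 418 bases in Ybx1. Neither transcript length nor ATTTA separated the genes that rose from those that fell.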

How the data were processed

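Gene counts came from the table the authors deposited, with 1 row per gene and 1 column per library, and 0 columns were left unmapped. RNA was amplified with a SMART-seq v4 kit and libraries were made with Nextera XT, per the labels' protocols. The tools named are Trimmomatic 0.39, STAR 2.7.1a and featureCounts 1.5.0, with build GRCm39, per the submitters' processing notes. However, 54435 of the 55487 genes (98.1%) have exactly the exon coordinates of GENCODE M21, so coordinates here are GRCm38. Whether counting used strand or multi-mapping reads is not given in the sources used here. No unique molecular identifiers are mentioned in the labels, so the limits given for a count of 0 cover counting error only.

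The deposited counts were tested with edgeR 4.0.16 (R 4.3.3) by the quasi-likelihood test with TMM scaling, filterByExpr at a minimum count of 10 and Benjamini-Hochberg adjustment over all genes tested, at FDR 0.05. The SE is the log2 fold change divided by the square root of F, and intervals are 95% and include the spread between libraries. Counts of genes whose groups do not overlap use CPM scaled within the comparison. Each comparison used its 2 groups, and the interaction all 20 libraries. Ratios were log2((count + 0.5)/(partner count + 0.5)), with two-sided exact permutation tests (scipy 1.17.1) over 252 regroupings. Alternatives were other scalings, no filter, DESeq2 1.42.0, limma-voom (limma 3.58.1), a covariate for detected genes, 1 fit of all libraries, a block for experiment number and each library left out. Scripts were tested on simulated data, and no library was a duplicate of another in its group. Libraries of different groups were not checked for this.

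The genes and lists were chosen with earlier results of these data known. Named are all 10 genes and any paralog. Of the other lists, up to 3 genes past FDR 0.05 per direction with the lowest p in a comparison are named. For the genes with the highest and lowest WT fold change, the 5 genes with the most similar profile (root mean square difference of centred log2 CPM, prior 0.5, genes of at least 5 CPM with a symbol) are named. Cell type markers are given as levels.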

Additional observations from a re-analysis of the deposited data

Results flagged for a closer look

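In 4 of the 40 groups of 5 libraries (10 genes in 4 groups), 1 library stood far from the other 4 by Dixon's test at the 95% level, and chance alone gives about 1 in 20 groups, or 2 of 40. Fmr1 was at 4.941 CPM in the growth cone library of experiment 7 labelled KO, and the nearest of the other 4 was at 27.1 CPM. Without that library the log2 fold change of Fmr1 was -1.68 between growth cones and somata labelled KO (edgeR adjusted p = 2.681e-05), -0.49 between genotypes in growth cones and -0.70 in the interaction. Ybx1 was at 1204 CPM in the WT soma library of experiment 12, and the nearest other was at 964.4 CPM. Pura was at 6.431 CPM in the WT soma library of experiment 26, and the nearest other was at 11.74 CPM. Stau2 was at 303.5 CPM in the soma library of experiment 25 labelled KO, and the nearest other was at 342.1 CPM. The cause of these values was not tested.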

How the results depend on the processing

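Ybx1 and Pura remained higher, and Fmr1, Stau1, Stau2 and Hnrnpr lower, in growth cones of both genotypes under every alternative run. Calls were gained for Igf2bp1, Elavl4 and Smn1 in WT only, as given above. Between genotypes 0 of the 10 genes passed under any alternative. For Igf2bp1, 3 growth cone libraries held 0, 0 and 2 counts, at or under the 3 counts that a count of 0 allows, and the other 7 held 26 to 139. Over all genes, the genotype comparison in growth cones called 0 genes, but 117 with DESeq2 and 7 with all libraries in 1 fit. In somata it called 109 genes, 561 with DESeq2, 30 with all libraries in 1 fit, and 67 to 107 with 1 library left out (67 without the labelled KO library of experiment 22 and 68 without the WT library of experiment 22). The interaction called 7 genes, 490 with DESeq2, 4 with a covariate for detected genes, and 5 to 12 with 1 library left out (11 without the labelled KO and 12 without the WT growth cone library of experiment 7). The cause was not tested.

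With experiment number as a replicate block, 34 genes were called in somata and 0 in the interaction. The numbers were not treated as pairs, because the labels do not say what libraries of equal number share. Deviations of same-numbered libraries from their group means correlated with r of 0.0261 to 0.1091 in growth cones and 0.0106 to 0.1339 in somata. These values do not decide whether the numbers mark pairs. As a hint from the data, not the design, each library was matched to those of the other genotype in its compartment. Every growth cone library except WT 9 correlated best with its own number. So did the somata with a partner of the same number, except labelled KO 22 and both of 26. Under the block the genotype values in somata changed sign for Ybx1 (0.0318) and Hnrnpr (-0.0149), as did the Ybx1 interaction (-0.06) and the log2 ratio of Ybx1 to Ybx3 in somata (0.0017).

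None of the values that changed sign was called. In somata between genotypes, Stau2 was at 0.0063 with library totals alone, 0.0268 with limma-voom and 0.1212 with the detected-gene covariate. That covariate gave 0.0181 for Ybx1, -0.0872 for Pura, -0.0094 for Hnrnpr and -0.0228 for Smn1 in somata, and -0.1063 for the Ybx1 interaction. With 1 library left out, the genotype value in growth cones ran from -0.0827 to 0.0772 for Ybx1, from -0.08 to 0.2198 for Hnrnpr and from -0.3978 to 0.0223 for Smn1. In somata it ran from -0.0793 to 0.0951 for Stau2, from -0.0291 to 0.1804 for Pura, from -0.0532 to 0.0886 for Hnrnpr and from -0.0676 to 0.1836 for Smn1. The interaction ran from -0.0333 to 0.1333 for Ybx1, from -0.1305 to 0.177 for Khsrp and from -0.1285 to 0.1783 for Hnrnpr. Ratio differences between genotypes in growth cones ran from -0.2144 to 0.1035 for Khsrp to Fubp1, from -0.048 to 0.221 for Stau2 to Stau1 and from -0.204 to 0.2575 for Pura to Purb. In somata they ran from -0.1657 to 0.1231 for Khsrp to Fubp1 and from -0.0089 to 0.3666 for Pura to Purb. Between WT growth cones and somata, Stau2 to Stau1 ran from -0.0181 to 0.251.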
